A study of Bos taurus with 6 samples.

Results

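Sterol enzymes that lead from lanosterol to cholesterol were examined in primary bovine myoblasts with and without resveratrol (RSV). The list held 9 enzymes (LSS, CYP51A1, MSMO1, NSDHL, HSD17B7, EBP, SC5D, DHCR7 and TM7SF2), and its members were selected on a measured contrast, as those with a gene name in the study's list of differentially expressed (DE) mRNAs. This gave 8 enzymes among the 26332 mRNAs of the deposited table. TM7SF2, a sterol reductase that acts after CYP51A1, had no name in the 1999 rows of that list used here, which are a part of it, and was not analysed here. Because names were taken from DE mRNAs, the members were in effect chosen by their adjusted P-values and log2 fold changes between RSV and DMSO, and their differences between the groups are described below with no p-value, with the calls of a fit over all mRNAs given only as counts.

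Primary myoblasts, the mononucleated cells that fuse into muscle fibers, came from the longissimus dorsi muscle of fetal cattle and were cultured in differentiation medium. RSV, a plant polyphenol, was dissolved in DMSO and given to 3 cultures at 20 μM over 4 days, while 3 control cultures received DMSO alone, so that cultures of both groups carried the solvent. The study's methods describe the 3 cultures of each group as independent experiments, and the number of fetuses behind them is not given in the sources used here. RNA of each culture was sequenced, and the deposited table holds 1 mean per group and mRNA, from which the whole reads of single libraries were recovered.

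Lanosterol is the first sterol of the pathway, and the enzymes after it remove methyl groups, shift and reduce double bonds, and so produce cholesterol, a building block of the plasma membrane and of the T-tubules of muscle. Earlier enzymes make lanosterol from acetyl-CoA by way of mevalonate and squalene. In animal cells, genes of both stretches are textbook targets of the sterol regulatory element binding proteins, transcription factors that SCAP escorts out of the endoplasmic reticulum when sterols are scarce and that INSIG proteins hold back when sterols are plentiful.

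A unique set of whole reads was recovered for 20157 (98.5%) of the 20459 mRNAs with reads, and the total per library ran from 12503583 to 13188493 reads for RSV and from 11026810 to 12057167 for DMSO. A size factor, the number that scales a library for its depth, is the only name that a recovered library has, and it links no library to a replicate number. The RSV libraries are called RSV-a (size factor 1.088), RSV-b (1.084) and RSV-c (1.054) below, and the DMSO libraries are given in the order of the size factors 0.964, 0.960 and 0.886. RSV-c stood apart. The chi-square per degree of freedom was taken over the mRNAs with enough reads in each pair of libraries (15366 to 15730). It was 12.9 for RSV-c against RSV-a and 19.8 against RSV-b, compared with 3.32 between RSV-a and RSV-b and 2.27 to 3.13 between DMSO libraries. The log2 fold changes between the groups are therefore given with and without RSV-c. Because RSV-c was set aside for its distance, the standard errors (SE) without it understate the spread between cultures. For LSS the SE was 0.059 without RSV-c, 0.226 without RSV-a and 0.165 without RSV-b. All values are normalized reads, that is, reads divided by the size factor, and they are compared between libraries and not between genes, since they are not divided by transcript length.

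All 8 enzymes passed the minimum mean of 10 normalized reads, and the fit over 14727 mRNAs (limma voom, Benjamini-Hochberg adjusted p under 0.05) called 7 of them lower and 1 higher in the RSV group. The background of these calls was large, since 17.1% of all tested mRNAs (2525) were called lower and 16.7% (2460) higher. These shares depended on the libraries, and without the DMSO library of size factor 0.886 the numbers were 1303 and 1151, while the enzymes called lower were still 7. For none of the 8 enzymes did an RSV library reach into the range of the DMSO libraries, as for 26.3% of all tested mRNAs in the direction of a fall and 27.0% in the direction of a rise. Nothing is read from these counts, because the same contrast chose the members. The median log2 fold change (log2FC, RSV minus DMSO) of the 8 enzymes was -1.58, and -1.36 without RSV-c, while that of all tested mRNAs was 0.0058. In bulk RNA, fewer cells of a type and less RNA per cell cannot be told apart.

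**Figure D1:**
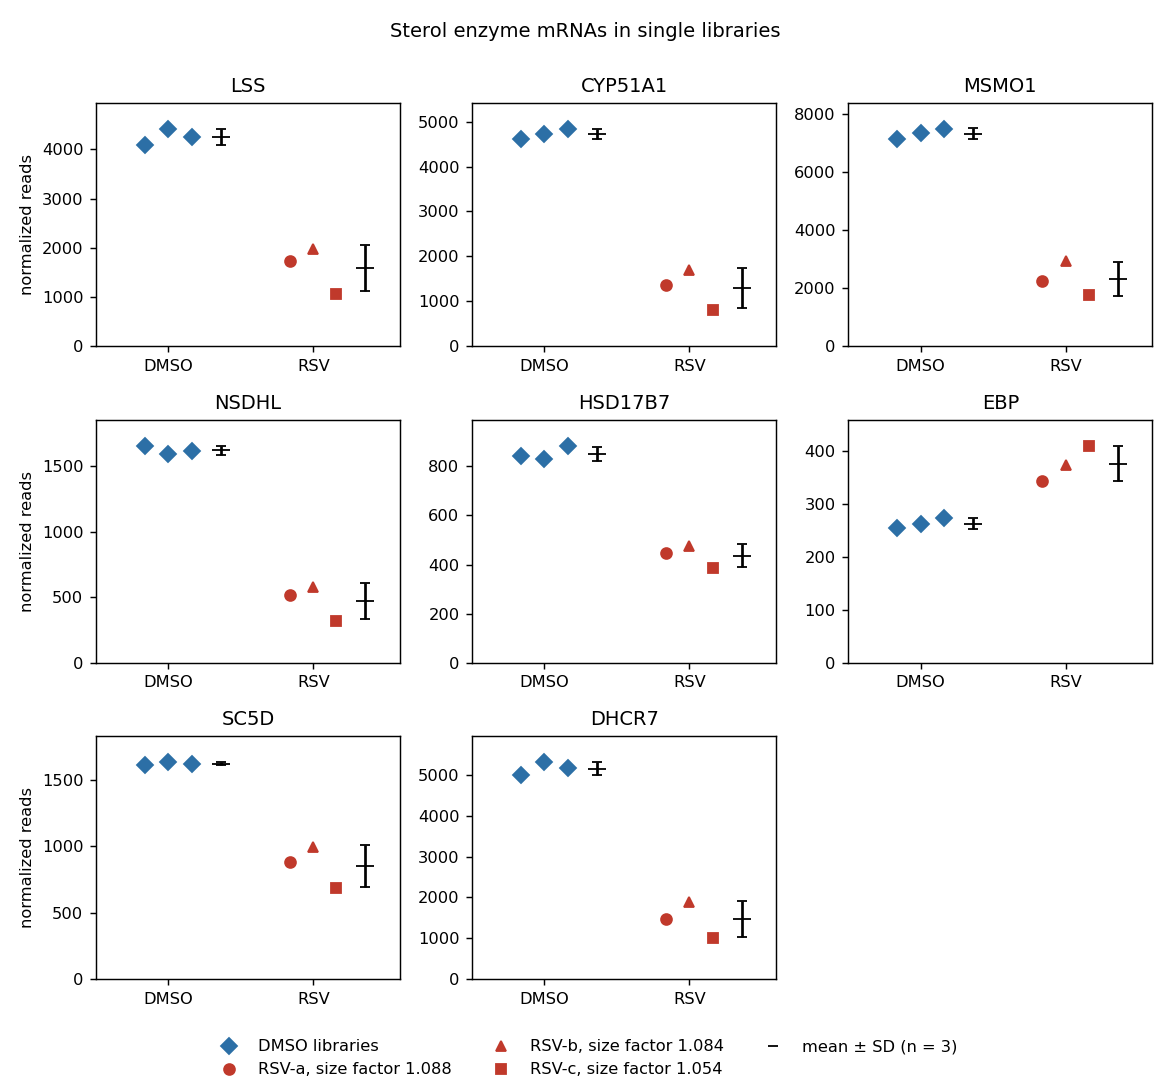
Normalized reads (y axis, linear, from 0) of the 8 sterol enzymes in each DMSO and RSV library, with the mean ± SD of each group (n = 3). The RSV libraries lie below the DMSO libraries in every panel except EBP, where they lie above, and the square of RSV-c is the lowest point for the 7 listed enzymes that were lower in RSV.

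LSS (ENSBTAG00000018936), lanosterol synthase, folds oxidosqualene into lanosterol and so opens the sterol stretch. It had 1726, 1978 and 1064 normalized reads in RSV-a, RSV-b and RSV-c and 4092, 4418 and 4249 under DMSO. Even the highest RSV library was 2.07-fold below the lowest DMSO library. The group means were 1589.5 ± 472 (SD, n = 3) in RSV and 4253 ± 163 (SD, n = 3) in DMSO, which put LSS at 37.4% of the DMSO mean. Its log2FC was -1.47 (SE 0.19) with all libraries and -1.20 (SE 0.059) without RSV-c.

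CYP51A1 (ENSBTAG00000001992), the cytochrome P450 that strips the first methyl group from lanosterol, showed the lowest RSV level relative to DMSO among the 8 enzymes. Its normalized reads were 1361, 1693 and 812 in RSV-a, RSV-b and RSV-c, against 4621, 4730.3 and 4841 under DMSO. The RSV libraries thus spread over a 2.08-fold range, while the DMSO libraries spread over a 1.05-fold range. The RSV mean of 1289 ± 445 was 27.2% of the DMSO mean of 4731 ± 110.2 (SD, n = 3 each). The log2FC was -1.94 (SE 0.22), and -1.64 (SE 0.068) without RSV-c.

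The next 3 enzymes work together to remove the remaining methyl groups from the first ring of the sterol: MSMO1 oxidizes a methyl group, NSDHL takes off the oxidized carbon, and HSD17B7 turns the resulting ketone back into a hydroxyl group. MSMO1 (ENSBTAG00000003068) had 2234, 2921 and 1748 normalized reads in RSV-a, RSV-b and RSV-c and 7123, 7339 and 7470.0 under DMSO. NSDHL (ENSBTAG00000009231) had 514, 579.6 and 315 under RSV, in the same order, and 1658, 1591 and 1614.5 under DMSO. HSD17B7 (ENSBTAG00000005976) had 448, 477 and 385 under RSV and 841, 828.5 and 885 under DMSO. RSV-b was the highest and RSV-c the lowest RSV library for all 3 enzymes, and no RSV library reached the DMSO range. The RSV mean was 31.5% of the DMSO mean for MSMO1, 29.0% for NSDHL and 51.3% for HSD17B7. The log2FC of MSMO1 was -1.70 (SE 0.15), and -1.52 (SE 0.073) without RSV-c. That of NSDHL was -1.83 (SE 0.18), and -1.57 (SE 0.068) without RSV-c. HSD17B7, the reductase of the group, differed less, with a log2FC of -0.97 (SE 0.087), and -0.88 (SE 0.072) without RSV-c.

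EBP (ENSBTAG00000009287), the isomerase that moves a double bond within the second ring and that was first known as the emopamil binding protein, was the only one of the 8 enzymes that was higher in the RSV group. It had 345, 375 and 411 normalized reads in RSV-a, RSV-b and RSV-c and 254, 262 and 274 under DMSO. The lowest RSV library lay 1.26-fold above the highest DMSO library, and RSV-c, the lowest library for the other 7 enzymes, was the highest one for EBP. The RSV mean of 377 ± 33.1 was 143% of the DMSO mean of 263 ± 10.1 (SD, n = 3 each). The log2FC was 0.51 (SE 0.098), and 0.45 (SE 0.092) without RSV-c. EBP had the smallest difference of the 8 enzymes. All 8 were on the DE list, and TM7SF2 had no name in the rows used here, whether or not it is on the full list. No value of a listed enzyme outside the DE list could therefore be set beside that of EBP.

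SC5D (ENSBTAG00000019246), the desaturase that follows EBP, had 881, 996 and 686 normalized reads in RSV-a, RSV-b and RSV-c and 1615, 1632 and 1616 under DMSO. The DMSO libraries were almost level, and the highest RSV library was 1.62-fold below the lowest of them. Its RSV mean was 52.7% of the DMSO mean, with a log2FC of -0.94 (SE 0.12), and -0.79 (SE 0.061) without RSV-c.

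DHCR7 (ENSBTAG00000016465) reduces the ring double bond that EBP placed, while the one made by SC5D stays in cholesterol, and its substrate is also the precursor of vitamin D. It had 1474, 1898.5 and 1018 normalized reads in RSV-a, RSV-b and RSV-c and 4982, 5301 and 5160.5 under DMSO. The highest RSV library was 2.62-fold below the lowest DMSO library. The RSV mean of 1464 ± 440.4 was 28.4% of the DMSO mean of 5148 ± 160.1 (SD, n = 3 each), and the log2FC was -1.86 (SE 0.18), or -1.62 (SE 0.073) without RSV-c.

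With all libraries, the 7 enzymes that fell lay in 2 ranges by the size of the difference. LSS, CYP51A1, MSMO1, NSDHL and DHCR7 were at 27.2% to 37.4% of the DMSO mean, and HSD17B7 and SC5D at 51.3% and 52.7%. The step from LSS to HSD17B7 was 0.50 on the log2 scale and kept its direction in each RSV library, from 0.27 to 0.85. The step from MSMO1 to LSS, 0.23 on the log2 scale, also kept its direction in each RSV library, from 0.066 to 0.41. The division rested on RSV-c. Without it the log2FC was -1.52 for MSMO1, -1.20 for LSS and -0.88 for HSD17B7, so LSS lay about midway. The order of CYP51A1, DHCR7, NSDHL and MSMO1 among themselves changed from one RSV library to another, with steps of 0.08, 0.03 and 0.13 between neighbours, and so did that of HSD17B7 and SC5D, with a step of 0.03.

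The order of the RSV libraries was not itself used to choose the members. It is not independent of that choice, since each RSV library is part of the RSV mean on which the DE list rests. All 7 enzymes that fell had the order RSV-b, RSV-a, RSV-c from high to low, and 28.4% of all tested mRNAs and 53.0% of the 2525 mRNAs called lower had the same order. RSV-c was the lowest RSV library for 42.2% of all tested mRNAs and the highest for 41.7%. Normalized reads are scaled for each library, so these near-equal shares cannot show whether a library was low in general. Among mRNAs called lower RSV-c was the lowest for 73.3%, and among mRNAs called higher it was the highest for 65.9%. Summed over the 7 enzymes, the normalized reads were 8637 in RSV-a, 10543 in RSV-b and 6029 in RSV-c, which were 33.8%, 41.3% and 23.6% of the DMSO mean. The DMSO libraries summed to 24930, 25840 and 25835 and differed from each other far less than the RSV libraries did.

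**Figure D2:**
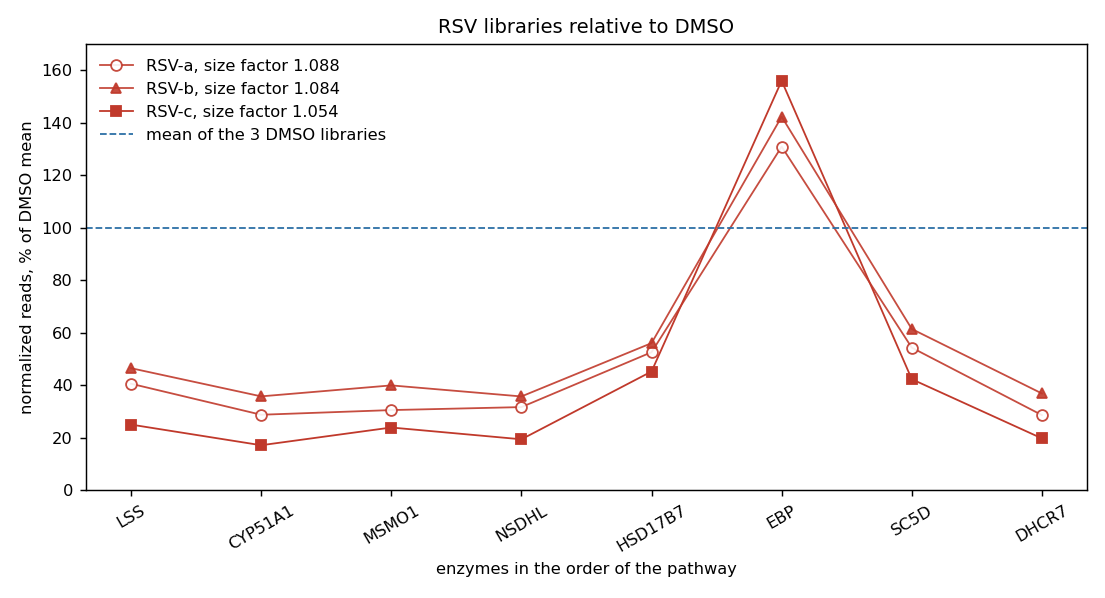
Normalized reads of each RSV library as a percent of the mean of the 3 DMSO libraries (y axis) for the 8 enzymes in pathway order (x axis), with lines that join the points of 1 library. RSV-b runs above RSV-a and RSV-c below it from LSS to HSD17B7 and at SC5D and DHCR7, from 17.2% for CYP51A1 in RSV-c to 61.4% for SC5D in RSV-b, while EBP lies at 131% to 156%.

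The distance of RSV-c from the other RSV libraries was unequal among the enzymes. RSV-c had 53.2% of the mean of RSV-a and RSV-b for CYP51A1, 57.5% for LSS, 57.6% for NSDHL, 60.4% for DHCR7 and 67.8% for MSMO1. The enzymes with the smaller difference between the groups were also nearer to the other RSV libraries in RSV-c, with 73.1% for SC5D and 83.3% for HSD17B7, and EBP had 114%. The median of the 7 enzymes that fell was 60.4%, while that of all tested mRNAs was 99.7% and that of the mRNAs called lower was 87.0%. These sets were not matched to the enzymes for the size of the difference. The 10 mRNAs nearest in profile, described below, were chosen for their likeness to the enzymes over the same libraries. Similar values in RSV-c therefore follow from that choice, and these mRNAs are no background matched on the fall. Of these 10, 3 had a similar fall and similar values. They were PRELP (58.0%, log2FC -1.84), MFAP5 (59.3%, -1.99) and FGF7 (61.1%, -1.54). The others of the 10 fell less and had 74.0% (S100A10) to 87.8% (IARS). RSV-b also exceeded RSV-a for all 7, from 107% of RSV-a for HSD17B7 to 131% for MSMO1.

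The 7 enzymes that fell spread more among the RSV libraries than among the DMSO libraries. The coefficient of variation (SD as a percent of the mean, n = 3) of these enzymes lay between 10.8% (HSD17B7) and 34.5% (CYP51A1) under RSV and between 0.601% (SC5D) and 3.83% (LSS) under DMSO. Their median was 29.4% in RSV and 2.40% in DMSO. The 7746 tested mRNAs whose mean lay in the range of the 8 enzymes, from 320 to 4806 normalized reads, had medians of 6.89% in RSV and 4.26% in DMSO. This set was matched on mean level and not on the size of the fall. PRELP, MFAP5 and FGF7, which fell about as much as the enzymes, had 29.4%, 28.6% and 28.4% in RSV. They were chosen for their likeness to the enzymes over the same libraries, so these values follow from that choice. The smallest read number of the 8 enzymes was 243, for EBP in a DMSO library, with a counting error of 6.42%. The counting errors of the lowest libraries of the 7 enzymes that fell were between 2.33% and 5.49%. Under DMSO, the coefficients of SC5D (1432 to 1566 reads), NSDHL and HSD17B7 lay below the counting errors of their reads, and so do not measure a spread between cultures. Those of LSS, CYP51A1, MSMO1 and DHCR7 lay above. The part of RSV-c in the differences between the groups can be seen from the values without it, and the reason for its distance was not tested.

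**Figure D3:**
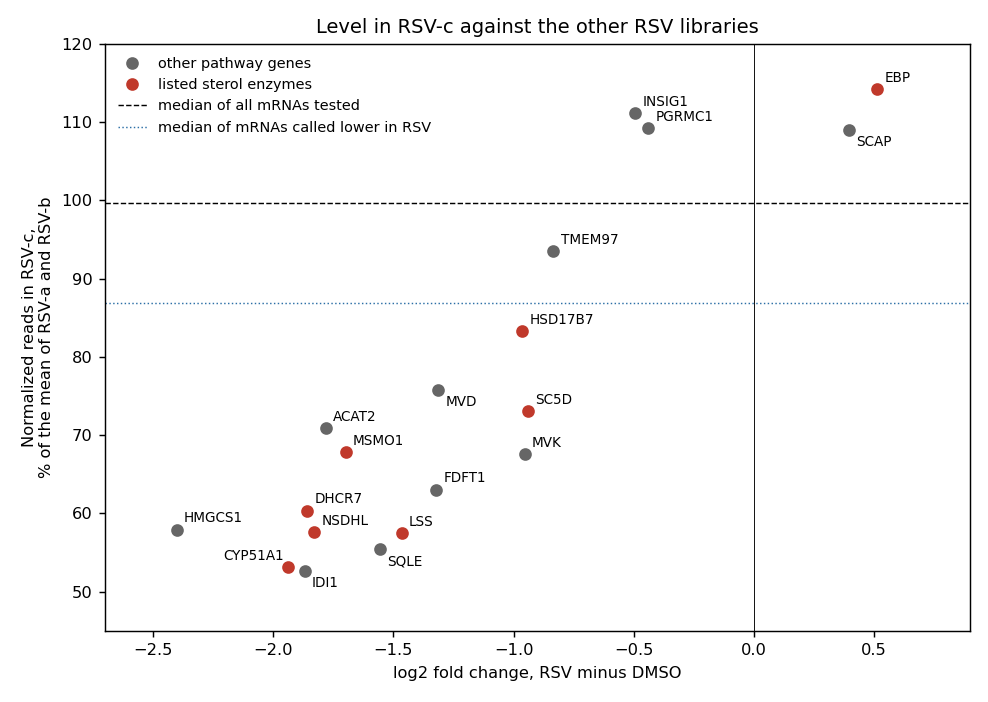
For each listed sterol enzyme (red) and each other named pathway gene (gray), the log2FC between the groups (x axis) against the normalized reads of RSV-c as a percent of the mean of RSV-a and RSV-b (y axis), with dashed and dotted lines at the medians of all tested mRNAs (99.7%) and of those called lower (87.0%). The 7 enzymes that fell lie below both lines, TMEM97 lies between them at 93.5%, and EBP lies above both at 114%; both axes hold the RSV libraries, so the points are a description.

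Other genes of the pathway were taken from a list, of which 28 genes are considered here, 12 have a name in the rows used here and 11 gave whole reads. SREBF2, which codes for the transcription factor of this pathway, was named but gave no whole reads. Of the 11, 10 were called lower and 1, SCAP, higher, and these counts too follow from the naming of DE mRNAs. Their median log2FC was -1.31.

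Of the entry and mevalonate steps, 10 genes were considered, and the 7 with a name were called lower, with a median log2FC of -1.55. HMGCS1, a synthase of the early mevalonate steps, had 1797, 2566 and 1264 normalized reads in RSV-a, RSV-b and RSV-c and 9227, 9807.5 and 9519.9 under DMSO, with a log2FC of -2.40 (SE 0.20), and -2.15 (SE 0.088) without RSV-c. IDI1, the isomerase of the isoprene units, had a log2FC of -1.87 (SE 0.23), and ACAT2, which joins acetyl-CoA units at the start, had -1.78 (SE 0.13). SQLE, the epoxidase just before LSS, had a log2FC of -1.55 (SE 0.21), FDFT1, the squalene synthase, -1.32 (SE 0.16), and MVD, the mevalonate decarboxylase, -1.31 (SE 0.11). The smallest difference was that of MVK, the mevalonate kinase, with a log2FC of -0.95 (SE 0.15). Without RSV-c the log2FC was -1.57 for IDI1, -1.62 for ACAT2, -1.28 for SQLE, -1.10 for FDFT1, -1.18 for MVD and -0.77 for MVK. These 7 genes were lowest in RSV-c, at 52.7% (IDI1) to 75.8% (MVD) of the mean of the other RSV libraries, which overlaps the range of the sterol enzymes that fell.

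The remaining named genes differed less between the groups. TMEM97, a sterol-binding membrane protein, had a log2FC of -0.83 (SE 0.077), and PGRMC1, a heme protein that binds P450 enzymes, had -0.44 (SE 0.059). INSIG1, which holds SCAP back in the endoplasmic reticulum, had 1831, 1948 and 2100.3 normalized reads in RSV-a, RSV-b and RSV-c and 2723, 2804 and 2746 under DMSO, with a log2FC of -0.49 (SE 0.062). SCAP had 3897, 3989 and 4299 under RSV and 2902, 3311 and 3064 under DMSO, with a log2FC of 0.39 (SE 0.067). Without RSV-c the log2FC was -0.80 for TMEM97, -0.48 for PGRMC1, -0.55 for INSIG1 and 0.35 for SCAP. Both regulators were highest in RSV-c, at 111% and 109% of the mean of the other RSV libraries, where the 7 sterol enzymes that fell were lowest. PGRMC1 was also highest in RSV-c, at 109%, and so were 41.7% of all tested mRNAs. That share depended on direction. SCAP was called higher, and RSV-c was the highest RSV library for 65.9% of mRNAs called higher. INSIG1 and PGRMC1 were called lower, and RSV-c was the lowest for 73.3% of mRNAs called lower.

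**Figure D4:**
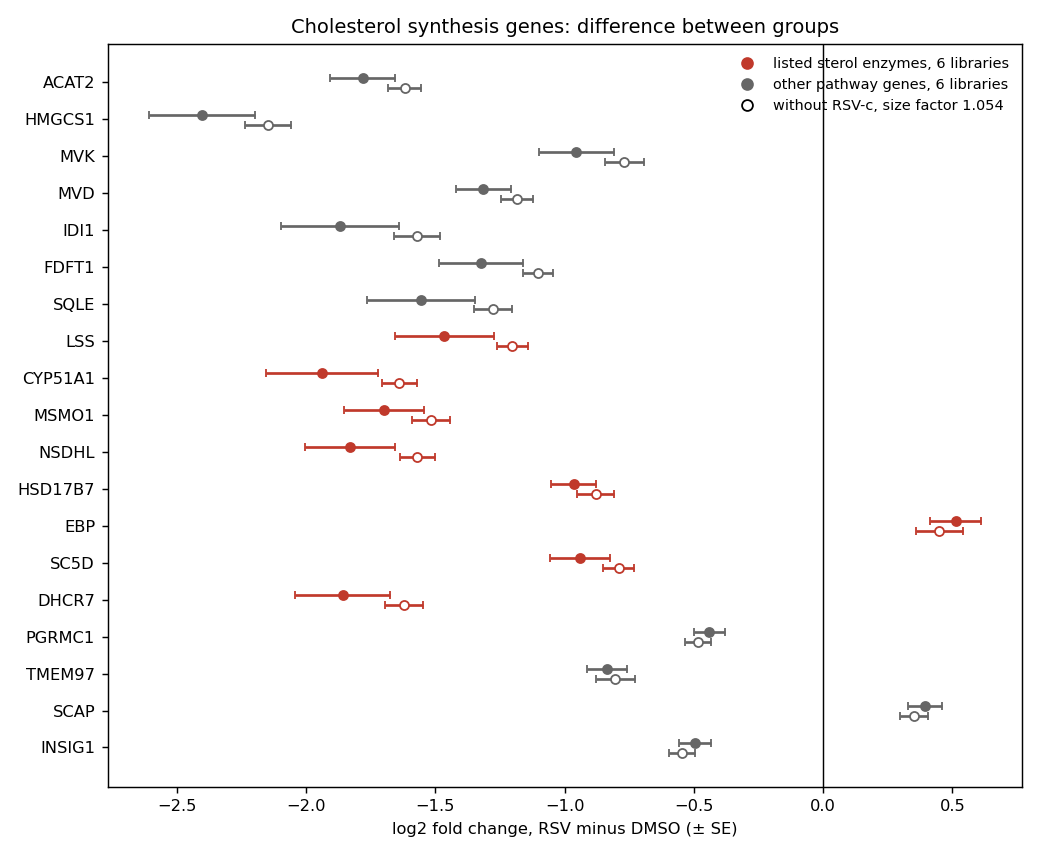
Log2FC between the RSV and DMSO groups (x axis, ± SE from limma voom) for the named cholesterol synthesis genes in pathway order, with all 6 libraries (filled) and without RSV-c (open). The listed enzymes are in red, and EBP (0.51) and SCAP (0.39) are the only genes to the right of 0, while leaving out RSV-c moved CYP51A1 from -1.94 to -1.64 and TMEM97 from -0.83 to -0.80.

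Each of the 7 enzymes that fell was centred and scaled over the 6 libraries, and the enzymes were then averaged within each library. The resulting mean profile was compared with other named mRNAs of at least 50 normalized reads. The members themselves correlated with this mean profile at Pearson r between 0.994 (HSD17B7) and 0.999 (CYP51A1 and DHCR7), and EBP at -0.967. The 6 points fall into 2 groups of libraries, so r is large for most genes that differ between the groups, and 843 of the 1645 candidates had r above 0.9. The 10 named mRNAs nearest to the profile, with r from 0.999 to 1.000, were ACLY, PLS3, IARS, PRELP, POSTN, FGF7, ADCY2, S100A10, ACTR3 and MFAP5, and none of them was on the pathway list. Of the entry and mevalonate genes, FDFT1 ranked 15 among the candidates, HMGCS1 26, IDI1 29, MVD 50, ACAT2 52, SQLE 86 and MVK 243. TMEM97 ranked 433, PGRMC1 857, INSIG1 862 and SCAP 1182. ACLY, which makes the cytosolic acetyl-CoA used for sterols and fatty acids, had 4031.5, 4348 and 3303 normalized reads in RSV-a, RSV-b and RSV-c and 6953.5, 6968 and 6922 under DMSO, with a log2FC of -0.84 (SE 0.093), and -0.73 (SE 0.047) without RSV-c. PRELP, an extracellular matrix protein, had 1086.5, 1254 and 678 under RSV and 3445, 3620.4 and 3429.8 under DMSO, with a log2FC of -1.84 (SE 0.18), and -1.58 (SE 0.061) without RSV-c. The other 8 nearest mRNAs had log2FC values between -1.99 (MFAP5, a microfibril protein) and -0.44 (IARS, a transfer RNA synthetase), which were -1.74 and -0.37 without RSV-c.

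The labelled cell type could be checked against few markers, because names were held for DE mRNAs alone. Of 13 myoblast and muscle markers, MYMK and MYH3 had a name and MYMK gave whole reads, with 1998, 1733 and 1629.8 normalized reads in RSV-a, RSV-b and RSV-c and between 1084 and 1114.5 under DMSO. MYMK, the fusion protein of myoblasts, had a log2FC of 0.70 (SE 0.081), and 0.77 (SE 0.063) without RSV-c, and so moved against the sterol enzymes between the groups. Of 6 fibroblast markers, 5 had a name and PDGFRA and FAP gave whole reads, and their summed level was 8188 to 8499 normalized reads in the RSV libraries and 12188 to 12500 under DMSO. Both were called lower, FAP with a log2FC of -1.13 (SE 0.095) and PDGFRA with -0.42 (SE 0.053), or -1.01 and -0.46 without RSV-c, in the same direction as the 7 sterol enzymes that fell. Of 3 leukocyte markers, CD14 had a name, with 27.7 to 46.5 normalized reads in the RSV libraries and 8.34 to 10.4 under DMSO. CD14 was called higher, with a log2FC of 1.83 (SE 0.34), and 1.62 without RSV-c. Its smallest read number was 8, with a counting error of 35.4%. None of 5 adipocyte and 4 endothelial markers had a name. The part of other cell types in the differences of the sterol enzymes was not tested.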

How the data were processed

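The deposited table holds, for the mRNAs of each group, the authors' mean over 3 libraries of depth-scaled read counts (each count over its library's size factor), and the authors compared the groups with DESeq. Bowtie 0.12.9 and bosTau8 are given for the miRNA tags, and the aligner and annotation of the mRNA reads are not given in the sources used here. The deposited log2 fold changes, P-values, adjusted P-values and DE calls are the authors' own comparison and were not used, except that the digits of the log2 fold change served to restore the decimal points that most group means of 1 or more had lost.

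Whole reads were recovered from each pair of group means by a lattice search over 3 reads per group, for means up to 10000, and kept where a single combination gave the mean and chance alone would have given fewer than 0.05 of them. No combination was found for 302 mRNAs, 108 of them named, and 5873 had no reads. Both the search and the fit were tested on simulated data. The columns used are group means, so the values of single libraries, their SDs and all tests rest on this recovery.

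Reads of mRNAs that averaged 10 or more normalized reads were fitted with limma voom (limma 3.58.1, R 4.3.3), 3 RSV against 3 DMSO libraries without covariates, with library sizes set by the size factors and Benjamini-Hochberg adjustment over all 14727 mRNAs. Other steps used Python 3.11.15, numpy 2.4.6, pandas 2.3.3, numba 0.67.0 and matplotlib 3.10.9. The smallest of the recovered library totals was 11026810 reads, and counting errors are 1 divided by the square root of the reads.

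Gene names came from the study's DE list, which names 1863 mRNAs in the rows used here. Named in the text were the listed enzymes, the named genes of the pathway list, the marker lists, and the 10 named mRNAs with the highest Pearson r to the mean profile, on log2(normalized reads + 1), with a mean of at least 50. The members and lists were chosen with earlier results of these data known. Alternatives were TMM library sizes, other minimum means, limma without weights at pseudocounts of 1 and 0.1, a minimum absolute log2 fold change of 1, the ratio of the deposited means, and each library left out in turn. miRNAs and promoter sequences were not analysed here, and 2 genes of the pathway list are not reported here.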

Additional observations from a re-analysis of the deposited data

How the results depend on the processing

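Over 12 alternatives, the log2FC of each of the 8 sterol enzymes kept its direction, with ranges of -1.65 to -1.20 for LSS, -2.17 to -1.64 for CYP51A1, -1.89 to -1.52 for MSMO1, -2.01 to -1.57 for NSDHL, -1.03 to -0.88 for HSD17B7, 0.45 to 0.58 for EBP, -1.06 to -0.79 for SC5D and -2.07 to -1.62 for DHCR7. The number of enzymes called lower was 7 under each alternative that makes calls (the ratio of the deposited means makes none) except the minimum absolute log2 fold change of 1, where it was 5. The median log2FC of all 8 enzymes ranged from -1.77 to -1.36 over the 6 fits that leave out 1 library. With library sizes by TMM, 7 of 7 enzymes that fell again had the order RSV-b, RSV-a, RSV-c. The number of all mRNAs called lower was 434 and of those called higher 550 with the minimum absolute log2 fold change, against 2525 and 2460. Over the same 6 fits, these numbers ranged from 1303 to 3003 and from 1151 to 3232. They were 1404 and 1211 without the DMSO library of size factor 0.964, 1420 and 1281 without that of 0.960, and 1303 and 1151 without that of 0.886, each with 1 library fewer. No paired analysis was possible because the recovered libraries carry no replicate number. Promoter matches were not run, since no promoter sequences were used here. With 3 libraries per group, the values of the sterol enzymes are limited by the spread between RSV libraries more than by depth, and means above 10000 normalized reads were not searched.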
